A study of Mus musculus with 32 samples.

Results

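The proteasome subunit genes were taken as all genes whose name on the array began with Psma, Psmb, Psmc, Psmd or Psme, with 1 such gene left out by the rule. The rule found 43 of the 28786 gene names on the array. Of these, 42 encode subunits, activators or assembly chaperones of the proteasome, and Psmc3ip, a factor of meiotic recombination, shares only the letters and is not counted below. The 42 genes comprised 8 subunits of the 20S alpha ring, 7 constitutive subunits of the 20S beta ring, 6 ATPases of the 19S base, 11 other 19S subunits, 3 chaperones of 19S assembly, 5 subunits of the immunoproteasome group (Psmb8, Psmb9, Psmb10, Psme1 and Psme2) and 2 other activators (Psme3 and Psme4). All 42 were among the 20537 genes tested, and for 41 of them the probe used was well above background on all 32 arrays. The exception was Psma8, the alpha subunit best known from testis, whose probe was dim.

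RNA of thymocytes from C57Bl/6 mice aged 6 weeks was measured on 32 one-colour arrays, each of RNA pooled from 2 mice. The P72 and R72 mice carry p53 with proline or arginine at codon 72, and each genotype had 4 independent experiments untreated (0 h) and at 2 h and 4 h after 5 Gy of gamma radiation, 24 arrays in all. The p53+/+ and p53-/- mice had 2 untreated arrays per genotype and 1 array each at 2 h and 4 h after the same dose, 8 arrays in all. The labels do not say how the codon 72 alleles are driven or from how many founders they came. Nor do they say whether the 2 untreated arrays of a p53 genotype came from separate pools. The p-values there measure only a spread between arrays, pooled over all 12 groups and drawn mostly from the P72 and R72 arrays. The irradiated p53 groups, of 1 array each, add nothing to that spread. The study asks how the codon 72 variants differ in their effect on NF-kB and immunity genes. A level below is log2 of the processed intensity minus the 75th percentile of its array, a change is a difference of mean levels, and a gene rose or fell where the adjusted p of limma (Benjamini-Hochberg over all genes tested) was under 0.05.

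Each array's 75th percentile lay between 268 and 1031 intensity units, 52.2% to 71.2% of probes were well above background, and arrays of a group correlated at 0.974 to 0.995. The levels of Trp53 itself were -0.50 to -0.10 on the 4 p53-/- arrays and -0.13 to 0.24 on the 4 p53+/+ arrays. The labels do not give the deleted exons, so a probe outside them would not check the genotype. Ccng1, a well-known p53 target, was at 2.12 and 2.16 in untreated p53+/+ cells and at 5.01 and 4.85 after irradiation, against 1.79 and 1.87 and then 1.71 and 1.74 in p53-/- cells. The labels describe pools of a male and a female. Xist, transcribed only from an inactive X chromosome, was low on many arrays, which went against that. Its high levels on the other arrays did not. Xist was between -7.92 and -3.73 in experiments 1 and 3 of both codon 72 genotypes and between 5.11 and 5.83 in experiments 2 and 4, so it was balanced over the times. In p53+/+ it was -0.88 and -1.46 untreated but 5.50 on both irradiated arrays, and in p53-/- it was -8.82 to -7.20, so in p53+/+ the difference in Xist and irradiation cannot be told apart. The 12 listed thymocyte markers, among them Cd3e, Cd4 and Cd8a, all had probes well above background in every group.

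The proteasome is the protease that degrades most ubiquitin-tagged proteins of the cytosol and nucleus. Its 20S core is a barrel of outer alpha rings and inner beta rings, and Psmb5, Psmb6 and Psmb7 encode the catalytic beta subunits. The 19S particle caps the barrel, binds ubiquitin, removes it, and unfolds the substrate with a ring of ATPases. In lymphoid tissue and after interferon, Psmb8, Psmb9 and Psmb10 take the catalytic places to form the immunoproteasome, which together with the PA28 activator of Psme1 and Psme2 favours peptides for MHC class I. In the thymus, where T cells are selected on such peptides, these inducible subunits are made without infection.

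Promoter sequences are shown for the members on which the results below turn most: Psmc1 and Psmd1, which fell among the furthest, Psmb5 as a constitutive catalytic subunit, and Psmb8, its inducible counterpart. Each is the 250 bases before the start of transcription, on the gene's strand, from RefSeq on GRCm38.p6: chr12:100109952-100110201 for Psmc1 (plus strand), chr1:86064369-86064618 for Psmd1 (plus strand), chr14:54617996-54618245 for Psmb5 (minus strand) and chr17:34197945-34198194 for Psmb8 (plus strand). Capitals mark a match to any of the 4 motifs described next.
Psmc1: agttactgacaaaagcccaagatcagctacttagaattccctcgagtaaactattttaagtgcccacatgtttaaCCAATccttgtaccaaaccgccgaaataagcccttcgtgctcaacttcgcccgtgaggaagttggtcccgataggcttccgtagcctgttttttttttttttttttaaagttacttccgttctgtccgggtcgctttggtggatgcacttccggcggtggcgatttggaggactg
Psmd1: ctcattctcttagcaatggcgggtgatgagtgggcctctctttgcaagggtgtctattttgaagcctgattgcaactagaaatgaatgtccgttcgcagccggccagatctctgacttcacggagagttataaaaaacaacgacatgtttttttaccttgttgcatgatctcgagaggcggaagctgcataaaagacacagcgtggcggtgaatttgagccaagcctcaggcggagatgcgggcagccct
Psmb5: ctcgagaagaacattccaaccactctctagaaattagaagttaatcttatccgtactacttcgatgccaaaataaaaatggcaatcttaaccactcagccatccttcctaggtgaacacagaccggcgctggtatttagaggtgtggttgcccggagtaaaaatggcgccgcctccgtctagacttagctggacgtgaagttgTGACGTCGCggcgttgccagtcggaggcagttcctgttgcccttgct
Psmb8: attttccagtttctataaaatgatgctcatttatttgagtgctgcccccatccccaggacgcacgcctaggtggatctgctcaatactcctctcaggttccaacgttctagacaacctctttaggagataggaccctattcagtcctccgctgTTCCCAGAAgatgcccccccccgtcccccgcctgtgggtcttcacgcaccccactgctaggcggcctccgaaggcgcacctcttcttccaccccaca

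Of the 42 genes, 35 had a promoter in the RefSeq table, and Psma8, Psmb1, Psmb2, Psmb7, Psmc3, Psmd3 and Psmd7 did not. The motifs were searched on both strands. The antioxidant response element, written TGACNNNGC, is the kind of site through which the factors of Nfe2l1 and Nfe2l2 act on proteasome genes, and it was in 5 of the 35 promoters (14.3%) against 11.5% of all 27025 promoters. In Psmb5 it read TGACGTCGC, between positions -47 and -39 from the start. The CCAAT box was in 13 of the 35 (37.1%) against 37.5% of all, and in Psmc1 it lay at -175 to -171. The interferon-stimulated element, searched as GAAA, any 2 bases and GAAA again, was in 3 (8.57%) against 3.46%. These were the constitutive Psmb3, Psmd4 and Psmd9, and 0 of the 5 immunoproteasome promoters held it in these 250 bases. The gamma-activated site, searched as TTCNNNGAA, was in Psmb8 alone of the 35 (2.86%) against 8.13%, where it read TTCCCAGAA from -97 to -89. No motif was found in these 250 bases of Psmd1.

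At 4 h after irradiation the constitutive proteasome genes were lower as a group in both codon 72 genotypes, and none was called higher. In P72 cells 31 of the 42 genes fell and in R72 cells 28 fell. Of all genes tested 20.8% fell and 35.8% rose in P72, and 16% fell and 28.8% rose in R72. Among the 7172 genes at least as bright as the dimmest subunit other than Psma8, the shares that fell were 39.1% and 30.9%. These bright genes are a closer yardstick than all genes but are not matched to the subunits. The set reaches down to the mean level of Psme3 (0.45), and most subunits were brighter. The median change of the 42 genes was -0.42 in P72 (25.3% lower) and -0.33 in R72 (20.3% lower). The median over all genes was 0.10 and 0.09, and that over the bright genes was -0.16 and -0.12. In 31 genes of P72 and 27 of R72 every array at 4 h lay below every untreated array, against 20.9% and 16% of all genes. In these bulk samples, fewer cells of a type and less RNA per cell cannot be told apart.

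**Figure D1:**
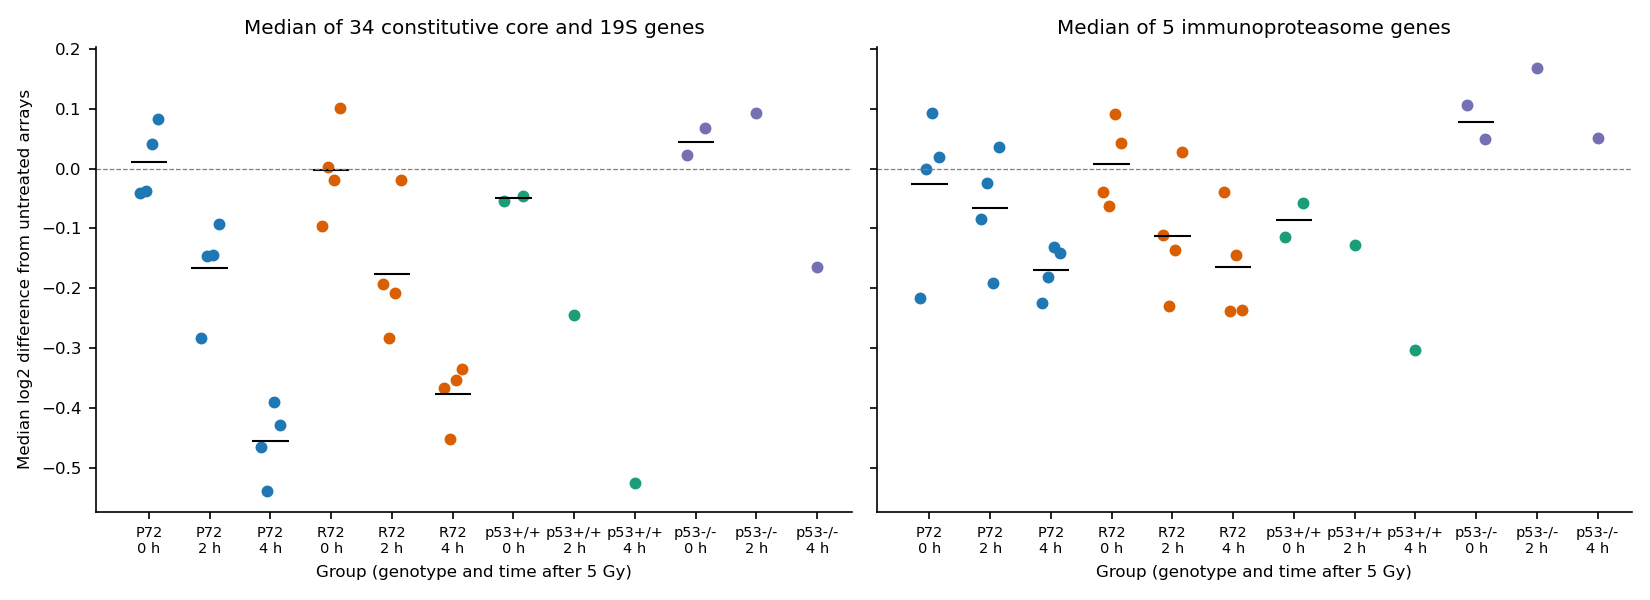
Median difference, in log2 units, of 34 constitutive core and 19S genes (left; alpha without Psma8, beta, ATPase, non-ATPase and chaperone genes) and of the 5 immunoproteasome genes (right) from the mean of untreated arrays, for each array by genotype and time; each point is 1 array and the line is the group mean. At 4 h the core genes lie between -0.54 and -0.39 in P72 and between -0.45 and -0.33 in R72, below all untreated arrays, while the immunoproteasome points of these arrays lie between -0.24 and -0.04.

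Array by array, the median of the 34 constitutive core and 19S genes (all but Psma8, the immunoproteasome group, Psme3 and Psme4) moved in steps. In P72 it was -0.04 to 0.08 untreated, -0.28 to -0.09 at 2 h and -0.54 to -0.39 at 4 h. The R72 medians were -0.10 to 0.10, then -0.28 to -0.02, then -0.45 to -0.33. The 4 h arrays of each genotype were apart from both earlier times. Slide was a batch that held both untreated and 4 h arrays on 2 slides per genotype. Within those slides the median change of the 42 genes at 4 h was -0.38 and -0.40 in P72 and -0.37 and -0.42 in R72.

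Of the 20S alpha ring, the gate of the core, 6 of 8 genes fell at 4 h in P72 (median -0.43) and 4 of 8 in R72 (median -0.33). Psma7 changed by -0.66 in P72 (SE 0.0984, adjusted p = 1.42e-05 in limma, n = 4 a group) and by -0.47 in R72 (adjusted p = 0.000699). Psma4 changed by -0.38 and -0.44, and Psma2 by -0.37 and -0.30, both called in both genotypes. Psma3, Psma5 and Psma6 fell in P72 alone (-0.64, -0.33 and -0.48), and their values in R72 were -0.34, -0.30 and -0.32, with no test of the difference passing. Psma1 was called in neither genotype (-0.20 and -0.09). The dim Psma8 was at -1.95 to -1.63 on the untreated R72 arrays and at -3.29 to -2.92 at 4 h, so the groups did not overlap. Its change was -1.28 in R72 (adjusted p = 0.0109) and -0.86 in P72 (adjusted p = 0.0644).

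Of the 20S beta ring, 6 of 7 constitutive genes fell in both genotypes, with a median of -0.39 in each. Psmb5 encodes the subunit with chymotrypsin-like activity. Its level in P72 was 3.60, 3.60, 3.66 and 3.70 untreated, 3.32, 3.55, 3.27 and 3.47 at 2 h, and 3.02, 3.12, 2.99 and 2.84 at 4 h. The R72 levels were 3.45, 3.60, 3.63 and 3.67 untreated, 3.50, 3.18, 3.03 and 3.52 at 2 h, and 3.25, 3.08, 2.97 and 3.01 at 4 h. In both genotypes all 4 h arrays lay below all untreated ones, and at 2 h only the P72 arrays did. The change at 4 h was -0.65 in P72 (36.1% lower, SE 0.102, adjusted p = 2.80e-05 in limma) and -0.51 in R72 (29.9% lower, adjusted p = 0.000451). Psmb6, with caspase-like activity, changed by -0.38 and -0.39, and Psmb7, with trypsin-like activity, by -0.48 and -0.41. Psmb3 and Psmb1, structural subunits, changed by -0.57 and -0.39 in P72 and by -0.50 and -0.30 in R72. Psmb4 fell least of those called, by 0.18 and 0.19, and Psmb2 was not called (-0.28 and -0.25).

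Of the 6 ATPases that unfold substrates, all but Psmc5 fell in both genotypes, with a median of -0.51 in P72 and -0.43 in R72. Psmc1 had the largest change in P72 among the genes called. Its level in P72 was 4.10, 4.10, 4.23 and 4.18 untreated, 3.61, 3.81, 3.74 and 3.77 at 2 h, and 3.40, 3.39, 3.45 and 3.23 at 4 h. The 3 times did not overlap. The R72 arrays gave 3.81, 3.86, 3.95 and 3.86 untreated, 3.75, 3.48, 3.37 and 3.45 at 2 h, and 3.51, 3.31, 3.27 and 3.22 at 4 h. In R72 both later times lay below the untreated arrays and overlapped each other. The change at 4 h was -0.79 in P72 (42.2% lower, SE 0.0833, adjusted p = 2.98e-07 in limma) and -0.54 in R72 (31.2% lower, adjusted p = 4.15e-05). The probe read lies at chr12:97618413-97618472 on mm7, the build of the array's annotation. Psmc3 changed by -0.66 and -0.43, Psmc6 by -0.52 and -0.42, and Psmc4 by -0.47 and -0.41. Psmc2 changed by -0.50 and -0.43 on the probe used, but its other probe gave 0.18 and 0.33. Psmc5 was at -0.15 and -0.12 and was not called, and its other probe gave -0.49 and -0.28.

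All 11 non-ATPase subunits of the 19S particle fell in P72 (median -0.49), and 10 of 11 fell in R72 (median -0.35). Psmd1, the scaffold that holds a ubiquitin receptor, was in P72 at 2.35, 2.34, 2.26 and 2.29 untreated, at 2.05, 2.14, 2.06 and 2.00 at 2 h, and at 1.69, 1.56, 1.62 and 1.50 at 4 h. Its R72 levels were 2.20, 2.33, 2.29 and 2.33 untreated, 2.02, 1.88, 1.74 and 1.52 at 2 h, and 1.89, 1.53, 1.60 and 1.46 at 4 h. The untreated arrays of both genotypes were above all irradiated ones. Its change at 4 h was -0.72 in P72 (39.2% lower, SE 0.0963, adjusted p = 4.79e-06 in limma) and -0.67 in R72 (37.1% lower, adjusted p = 2.11e-05), read at chr1:86027149-86027208 on mm7. Psmd13, a lid subunit, changed by -0.73 and -0.41. Psmd14, the deubiquitinase of the lid, changed by -0.57 and -0.49, and Psmd4, a ubiquitin receptor, by -0.34 and -0.31. Psmd7, the partner of Psmd14, changed by -0.60 and -0.48, and of its 2 other probes 1 gave 0.10 and 0.21 and the other -0.78 and -0.58. Psmd8 was the only one of the 11 not called in R72 (-0.26). Of the 3 chaperones of 19S assembly, Psmd5 changed by -0.61 and -0.53 and Psmd9 by -0.34 and -0.30, while Psmd10 was not called (-0.30 and -0.13). The other probe of Psmd9 gave -0.19 in P72 and 0.07 in R72.

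**Figure D2:**
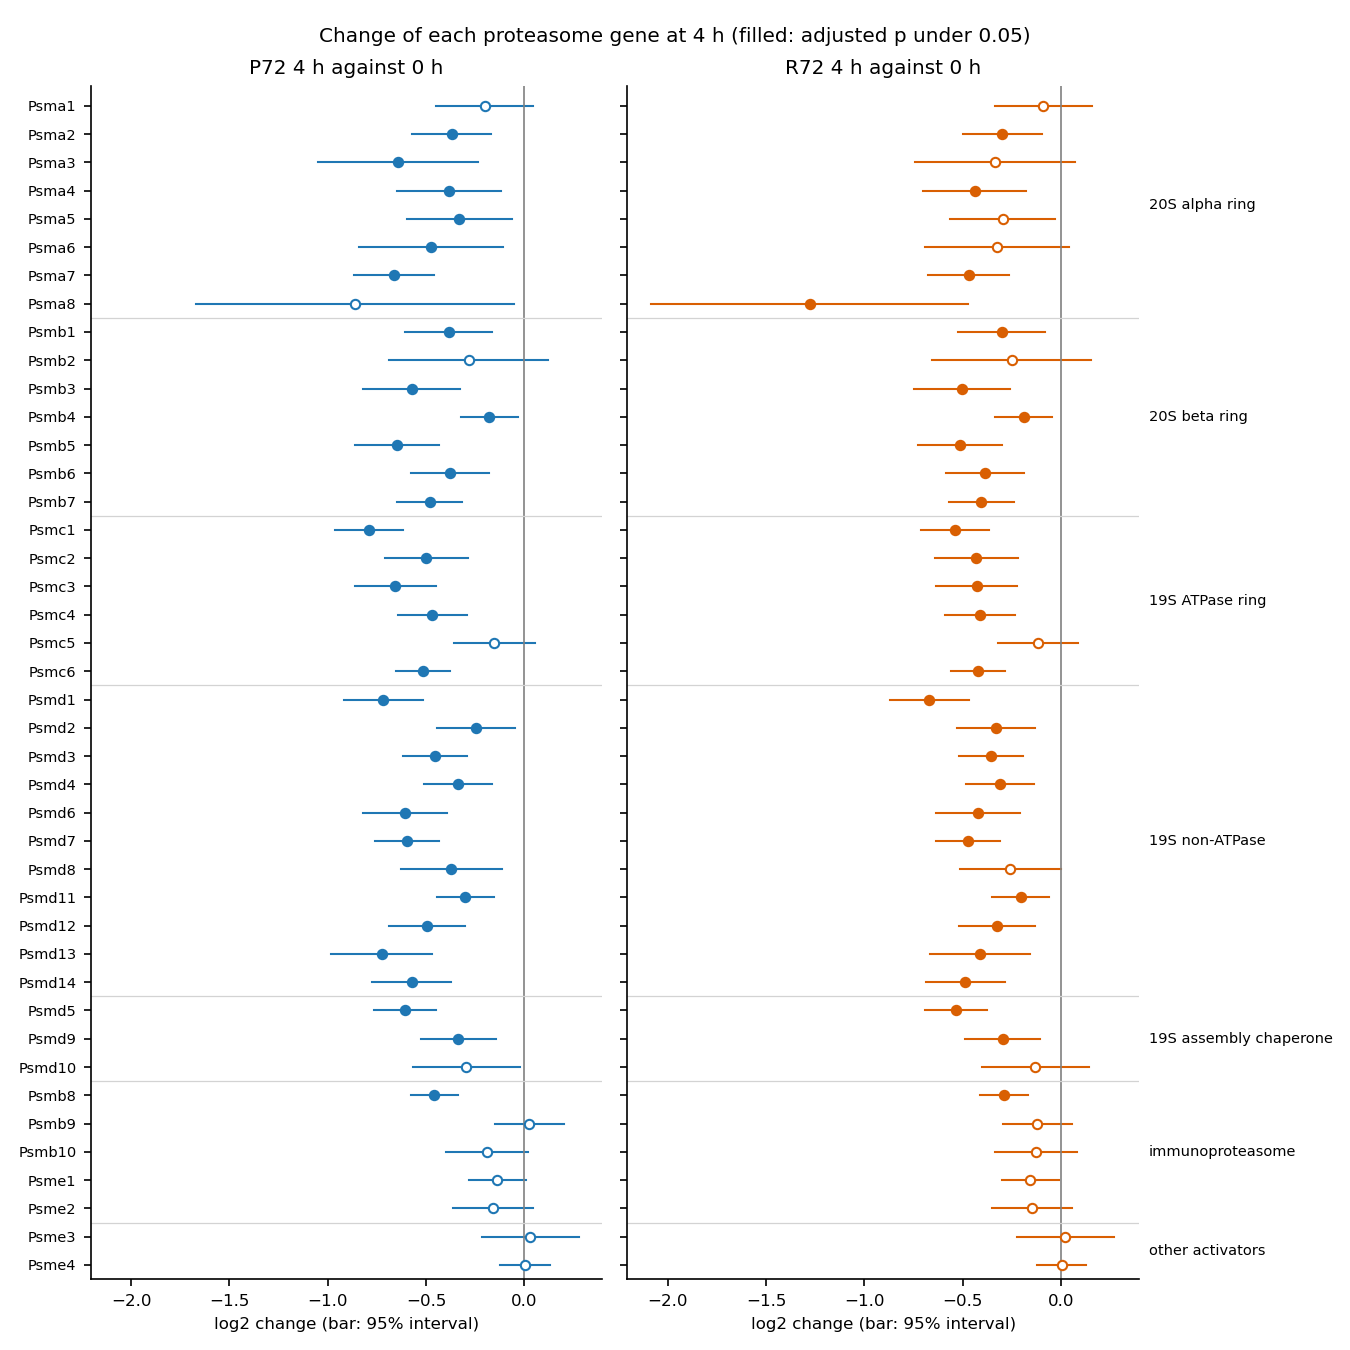
Log2 change from 0 h to 4 h of each of the 42 genes in P72 (left) and R72 (right), grouped by role; points are fitted changes, bars 95% intervals, and filled points have an adjusted p under 0.05. Filled points are 31 in P72 and 28 in R72, all left of 0, and in the immunoproteasome group only Psmb8 is filled.

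In the immunoproteasome group only Psmb8 fell in both genotypes at 4 h. The medians of the 5 genes were -0.16 in P72 and -0.15 in R72, near those of the bright genes (-0.16 and -0.12). The 5 genes had mean levels of 4.28 to 5.54, while the set of bright genes reaches down to 0.45, so the brightness is not matched. Psmb8 was in P72 at 5.60, 5.66, 5.77 and 5.69 untreated, at 5.43, 5.49, 5.43 and 5.43 at 2 h, and at 5.29, 5.23, 5.26 and 5.11 at 4 h. In R72 it was at 5.59, 5.66, 5.67 and 5.73, then 5.51, 5.43, 5.50 and 5.48, then 5.40, 5.34, 5.44 and 5.31. In P72 the 3 times did not overlap, and in R72 only 1 array at 4 h was within the 2 h range. The change at 4 h was -0.46 in P72 (27.2% lower, SE 0.0581, adjusted p = 2.63e-06 in limma) and -0.29 in R72 (18.1% lower, adjusted p = 0.000494). The R72 call was lost with quantile normalization (-0.11, adjusted p = 0.175), in the authors' value table (-0.13, adjusted p = 0.209) and with normexp background correction (adjusted p = 0.382). The probe spans chr17:32280725-32281049 on mm7 and crosses an intron.

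Psmb9, encoded beside Psmb8 in the MHC, was in P72 at 4.00, 4.34, 4.42 and 4.30 untreated and at 4.26, 4.27, 4.38 and 4.24 at 4 h. In R72 it was at 4.45, 4.28, 4.46 and 4.51 untreated and at 4.41, 4.31, 4.29 and 4.22 at 4 h. The groups overlapped in both genotypes. Its change was 0.02 in P72 (95% interval -0.15 to 0.20, adjusted p = 0.820) and -0.12 in R72 (-0.29 to 0.05, adjusted p = 0.257) in limma. Its direction turned with the scaling: it was called higher in P72 with quantile normalization (0.23, adjusted p = 0.0200) and lower in R72 with median centring (-0.27, adjusted p = 0.0123). Psmb10 was at -0.19 (adjusted p = 0.112) and -0.13, Psme1 at -0.14 (adjusted p = 0.0966) and -0.16, and Psme2 at -0.16 (adjusted p = 0.174) and -0.15, none called, although all 3 were called lower in both genotypes with median centring (-0.40, -0.35 and -0.37 in P72). The probe for Psme2 bears the name of the near-identical Psme2b in the files, and the 2 genes cannot be told apart. Of the other activators, Psme3, the nuclear PA28 gamma, was at 0.03 and 0.02, neither called. Psme4, the PA200 activator, was at 0.00 in both. With quantile normalization Psme4 was called higher in P72 (0.19) and R72 (0.17), as it was in the authors' table (0.18 in both). With median centring it was called lower in P72 (-0.21). Its other probes, all dimmer, gave -0.08, -0.25 and -0.27 in P72 and -0.05, 0.03 and -0.17 in R72.

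The size of the group change depended on the scaling, while its sign was the same under the 5 settings compared. Relative to the median of all genes, the median change of the 42 genes in P72 at 4 h was -0.53 here and with median centring, -0.86 with normexp background correction, -0.26 with quantile normalization and -0.25 in the authors' table. In R72 the 5 values were -0.42, -0.42, -0.31, -0.21 and -0.22. On this measure the value here and that with median centring must be equal, since both scalings subtract a constant from each array. They do not count as separate settings. With normexp 25 of the 42 genes were called in P72 and 3 in R72, against 31 and 28 here. Of all genes 13.5% in P72 and 3.73% in R72 were lower with normexp, against 20.8% and 16% here. In P72 quantile normalization left 22 genes lower and 2 higher, and the authors' values left 23 lower and 1 higher. In R72 those splits were 20 to 1 and 18 to 1.

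At 2 h after irradiation few members had passed the threshold. In P72 6 of the 42 genes fell (4.88% of all genes and 8.56% of the bright ones fell) and in R72 9 fell (6.8% and 13%), with medians of -0.17 and -0.15. Psmc1 (-0.42 in P72, -0.35 in R72), Psmd7 (-0.35 and -0.32), Psmd5 (-0.30 and -0.28), Psmd3 (-0.25 and -0.35) and Psmb8 (-0.23 and -0.18) were called in both. Psmd12, a lid subunit, was the other in P72 (-0.30), and Psmd1 (-0.50), Psmb3 (-0.37), Psmc6 (-0.27) and Psmb7 (-0.26) were the others in R72. The calls at 2 h went to 0 in both genotypes with normexp background correction, and Psmb8 in R72 was then at 0.0093. With normexp 0.915% of all genes fell in P72 and 0.633% in R72 at 2 h. The group median in R72 at 2 h depended on the scaling: it was 0.07 with normexp, -0.01 with quantile normalization and -0.02 in the authors' table.

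From 2 h to 4 h 22 genes fell in P72 (10.7% of all genes and 21% of the bright ones, median -0.26) and 9 in R72 (4.95% and 8.91%, median -0.18). Some of those in P72, such as Psmc1 and Psmb8, had already been called at 2 h. The largest changes among those called were in the same 3 genes in both genotypes and 1 other: Psmd13 (-0.57 in P72, -0.44 in R72), Psmc3 (-0.45 and -0.43), Psma4 (-0.42 and -0.36), Psmd1 in P72 (-0.47) and Psmd8 in R72 (-0.39). Without replicate 2 of P72 at 4 h the count in P72 was 14. In R72 it was 2 without replicate 2 at 4 h, 2 without replicate 4 at 2 h, and 4 without replicate 3 at 4 h.

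**Figure D3:**
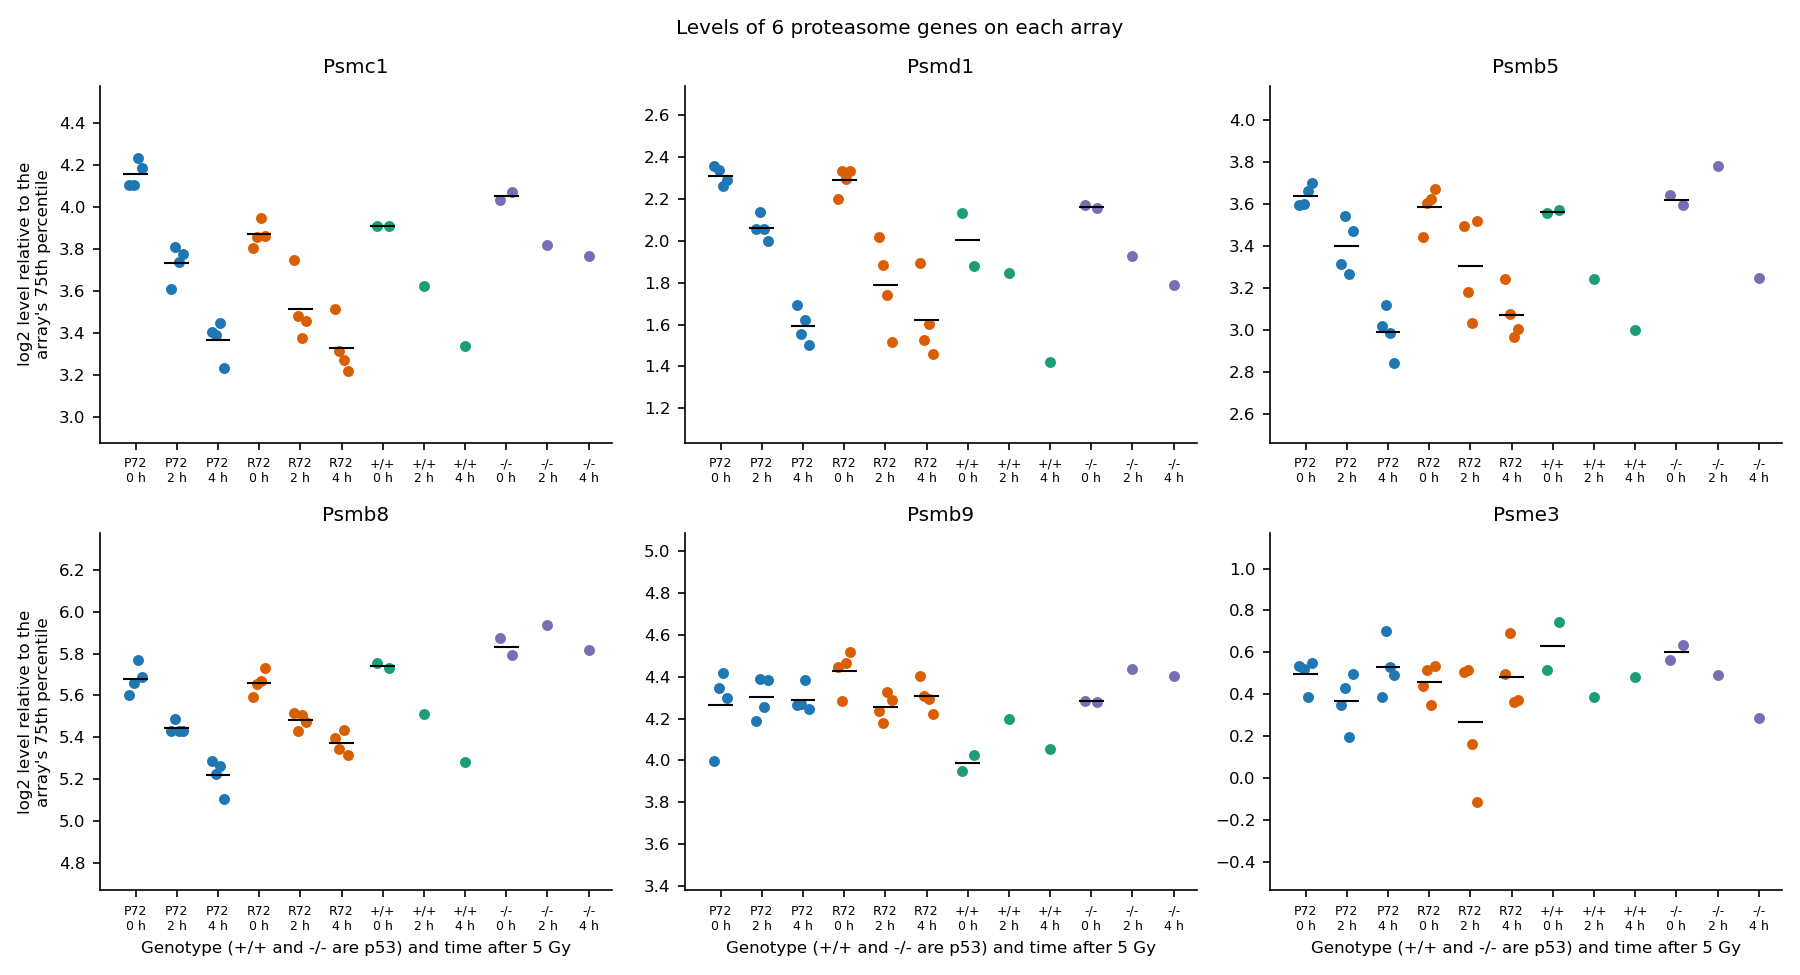
Log2 level, relative to each array's 75th percentile, of Psmc1, Psmd1, Psmb5, Psmb8, Psmb9 and Psme3 on all 32 arrays by genotype and time after 5 Gy; points are arrays and lines are means of groups with over 1 array, and the axes differ between genes. Psmc1, Psmd1 and Psmb5 step down with time in P72, R72 and p53+/+. In p53-/- Psmc1 (4.03 and 4.07, then 3.82, then 3.76) and Psmd1 (2.17 and 2.15, then 1.93, then 1.79) also step down, and Psmb5 is lowest at 4 h (3.25). Psmb8 steps down in P72, R72 and p53+/+ but stays between 5.79 and 5.94 in p53-/-. The P72 points of Psmb9 overlap at all times.

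Between P72 and R72 no member differed past the threshold at any time. The count was 0 of 42 at 0 h, 2 h and 4 h in limma, where 0.599%, 0.628% and 0.584% of all genes were lower and 0.326%, 0.662% and 0.672% higher in P72, and the numbers with an unadjusted p under 0.05 were 3, 5 and 3. Leaving out Psma8, the largest fitted difference was 0.29 at 0 h (Psmc1), -0.29 at 2 h (Psma3) and -0.25 at 4 h (Psmd13). Psmc1 was higher in all 4 untreated P72 arrays than in any untreated R72 array, with a difference of 0.29 (95% interval 0.11 to 0.46) that missed the threshold after adjustment (adjusted p = 0.124). Psmb8 differed by -0.15 at 4 h (interval -0.27 to -0.03, adjusted p = 0.236). For Psmb5 the interval at 4 h was -0.29 to 0.13, for Psmd1 -0.23 to 0.17, and for Psmb9 -0.19 to 0.16. These intervals bound what a difference could be and do not show that the genotypes act alike.

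The change from 0 h to 4 h was itself compared between the genotypes. No member passed (0 of 42 at each time in limma, against 0% of all genes in either direction except 0.00487% higher at 2 h), with 0 at an unadjusted p under 0.05 at 2 h and 1 at 4 h. The fitted difference at 4 h was negative, a larger fall in P72, for 33 of 42 genes, with a median of -0.07. The median was 0.01 over all genes and -0.03 over the bright ones. The fitted difference was -0.25 for Psmc1 (interval -0.50 to -0.00, adjusted p = 0.882 in limma), -0.31 for Psmd13 (-0.67 to 0.05) and -0.17 for Psmb8 (-0.34 to 0.00, adjusted p = 0.885).

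In p53+/+ thymocytes 16 of 42 proteasome genes fell after irradiation, taking 2 h and 4 h together, and in p53-/- none was called. Of all genes 10.3% fell and 13.2% rose in p53+/+, and 0.326% fell and 0.74% rose in p53-/-; of the bright genes 20.2% fell in p53+/+. The median of the 42 genes was -0.32 in p53+/+, with 41 of them negative, and -0.05 in p53-/-, with 25 negative. Over the bright genes the median was -0.15 in p53+/+ and -0.05 in p53-/-. The p53-/- median of the 42 genes turned to 0.01 with quantile normalization and 0.02 in the authors' table. In p53-/- the count at an unadjusted p under 0.05 was 4, and the lowest change was that of Psmd4 (-0.44, adjusted p = 0.0570 in limma). In p53+/+ quantile normalization left 4 genes lower and 1 higher, 2 were called with normexp background correction, 6 in the authors' table and 27 with median centring. Of all genes 8.87% were lower with quantile normalization, 2.42% with normexp, 9.43% in the authors' table and 19.6% with median centring. The 4 genes lower with quantile normalization were near the share of all genes. Per array, the median of the 34 core and 19S genes was -0.05 and -0.05 untreated, -0.24 at 2 h and -0.52 at 4 h in p53+/+. In p53-/- it was 0.02 and 0.07 untreated, 0.09 at 2 h and -0.16 at 4 h. The 4 h array carried most of the p53+/+ change: without it 2 genes were called, and without the 2 h array 20. Without either untreated array the count was 8 or 9. On the slide that held most p53+/+ arrays the median was -0.34, and on that of most p53-/- arrays it was -0.06. Xist moved with irradiation in p53+/+, as given above. There 2 of 12 macrophage, 6 of 11 neutrophil and 3 of 11 thymic epithelium markers were higher, beside 13.2% of all genes. The macrophage share was near that of all genes, with a list median of -0.01. Of dendritic cell markers 1 was higher and 1 lower, of B cell markers 1 was higher, and 1 fibroblast and endothelium marker and 1 thymocyte marker were lower. In p53-/-, where 0.74% of all genes rose, no marker was higher and 1 thymocyte marker was lower. The part of Xist and of these markers in these results was not tested.

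Of the alpha ring, Psma7 changed by -0.58 in p53+/+ (adjusted p = 0.00415 in limma) and was at 0.02 in p53-/-, and the dim Psma8 changed by -2.11 in p53+/+. Psmb5 was at 3.56 and 3.57 untreated, 3.24 at 2 h and 3.00 at 4 h in p53+/+, and at 3.64 and 3.60, then 3.78, then 3.25 in p53-/-. Both genotypes were lowest at 4 h, and only p53+/+ was lower at 2 h. Its change was -0.44 in p53+/+ (adjusted p = 0.0234). Psmc1 was at 3.91 and 3.91, then 3.62, then 3.33 in p53+/+, and at 4.03 and 4.07, then 3.82, then 3.76 in p53-/-. It was lower at both times in both genotypes, with a change of -0.43 in p53+/+ (adjusted p = 0.00820) and -0.26 in p53-/- (adjusted p = 0.325). Psmd1 likewise was at 2.13 and 1.88, then 1.85, then 1.42 in p53+/+, and at 2.17 and 2.15, then 1.93, then 1.79 in p53-/-. Psmd5, the assembly chaperone, changed by -0.57 in p53+/+ and was at -0.12 in p53-/-.

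The difference between the p53+/+ and p53-/- changes passed the threshold for 3 of 42 genes, all with the lower value in p53+/+ (2.26% of all genes, against 3.16% with the higher value). The count at an unadjusted p under 0.05 was 13, 38 of 42 were negative, and the median was -0.27. Psmb7 was at 3.43 and 3.38, then 3.17, then 2.79 in p53+/+ and at 3.34 and 3.46, then 3.69, then 3.33 in p53-/-. The difference of the changes was -0.54 (SE 0.154, adjusted p = 0.0435 in limma). Psmb8 was at 5.75 and 5.73, then 5.51, then 5.28 in p53+/+ and at 5.87 and 5.79, then 5.94, then 5.82 in p53-/-. It was below its untreated levels at both times in p53+/+ and at neither in p53-/-, and the difference was -0.39 (SE 0.111, adjusted p = 0.0419). Psmd7 was at 2.44 and 2.54, then 2.01, then 1.78 in p53+/+ and at 2.40 and 2.40, then 2.50, then 2.17 in p53-/-, with a difference of -0.53 (SE 0.149, adjusted p = 0.0411), read on its brightest probe. These 3 calls depended on the processing and on most arrays: the count was 0 with slide as a fixed block (3 as a random block), with normexp or quantile normalization, or with no filter on dim probes, and 0 without 6 of the 8 arrays taken singly (each untreated array of either genotype, p53+/+ at 4 h, or p53-/- at 2 h), 7 without p53+/+ at 2 h and 5 without p53-/- at 4 h. In the authors' table the lower value was in p53+/+ for 5 genes and in p53-/- for 1.

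**Figure D4:**
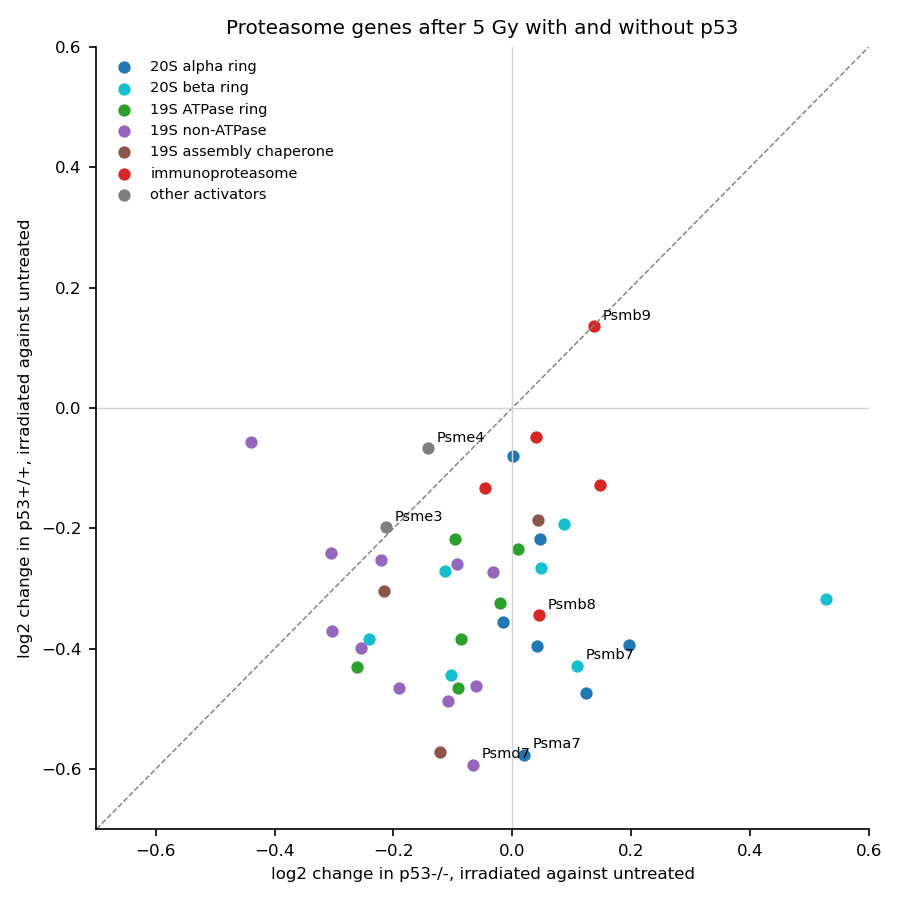
Log2 change after irradiation (2 h and 4 h averaged, against untreated) of proteasome genes in p53-/- (horizontal axis) and p53+/+ (vertical axis), each point 1 gene coloured by role, with the line of equal change dashed; Psma8, at -2.11 in p53+/+, is outside the axes. Most points lie below the line, Psmb7, Psmb8 and Psmd7 among them, and Psmb9 lies on it.

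Set directly against each other, irradiated p53+/+ and p53-/- arrays differed in 16 of 42 genes, all lower in p53+/+ (8.71% of all genes were lower and 13.1% higher, median -0.36). The largest were Psma4 (-0.78, adjusted p = 0.00410 in limma), Psma7 (-0.67), Psmd5 (-0.67) and Psmc3 (-0.63), and of the immunoproteasome group Psmb10 (-0.53) and Psmb8 (-0.48) were among them. Untreated, 0 of 42 were called (0.365% of all genes lower and 0.346% higher), 4 had an unadjusted p under 0.05, and the median was -0.12. The irradiated count was 2 without the p53+/+ array at 4 h, 3 without the p53-/- array at 2 h, and 23 without the p53+/+ array at 2 h. Both irradiated p53+/+ arrays lay on 1 slide and both irradiated p53-/- arrays on another, each with untreated arrays of both genotypes. Xist was at 5.50 on both irradiated p53+/+ arrays and at -8.82 and -7.20 on the irradiated p53-/- arrays. The difference in Xist and the genotype cannot be told apart here. With slide as a fixed block the count was 7, and with normexp background correction 3.

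Of 17 assembly and regulator genes tested, 11 fell and 1 rose in P72 at 4 h (median -0.29), and 10 fell in R72 (median -0.28), where 20.8% and 16% of all genes and 39.1% and 30.9% of the bright ones fell. Psmg1 and Psmg2, which together chaperone the alpha ring, changed by -0.81 and -0.52 in P72 and by -0.67 and -0.42 in R72. Txnl1, a thioredoxin bound to the 19S particle, changed by -0.68 and -0.50, and Uchl5, a deubiquitinase of the same particle, by -0.68 and -0.60. With normexp background correction 7 fell in P72 and 3 in R72, where 13.5% and 3.73% of all genes fell. In p53+/+ 5 of the 17 fell, beside 10.3% of all genes and 20.2% of the bright ones. In p53-/-, where 0.326% of all genes fell and 0.74% rose, none was called.

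Of 22 genes that supply ubiquitin or deliver substrates, 12 fell in P72 at 4 h (median -0.31) and 11 in R72 (median -0.24), with none higher. Of all genes 20.8% and 16% fell, and of the bright ones 39.1% and 30.9%. Uba1, the main ubiquitin-activating enzyme, changed by -0.68 and -0.59. Ubqln1 and Rad23b, which shuttle tagged proteins to the proteasome, changed by -0.65 and -0.55 in P72 and by -0.41 and -0.54 in R72, and Ube2k, a ubiquitin-conjugating enzyme, by -0.63 and -0.45. With normexp background correction 9 fell in P72 and 1 in R72, where 13.5% and 3.73% of all genes fell. The 1 gene in R72 was near the share of all genes. In p53+/+ 7 of the 22 fell, beside 10.3% of all genes and 20.2% of the bright ones. In p53-/-, where 0.326% of all genes fell and 0.74% rose, none was called.

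The genes of antigen processing beside the immunoproteasome did not fall as a list. Of 15 tested, 7 rose and 2 fell in P72 at 4 h (median 0.23), and 3 rose and 2 fell in R72 (median 0.17). Of all genes 35.8% rose in P72 and 28.8% in R72, so the R72 share was below that of all genes. The split turned with the scaling: with median centring 4 rose and 5 fell in P72 and 2 rose and 4 fell in R72, with quantile normalization 7 and 6 rose and none fell, and with normexp none was called in R72. H2-K1 and H2-D1, the classical class I heavy chains, changed by 0.90 and 0.64 in P72 and by 0.53 and 0.35 in R72. Irf1, a transcription factor of class I and immunoproteasome genes, changed by 0.74 and 0.50. B2m, the class I light chain, changed by 0.64 in P72 and was at 0.37 in R72 (adjusted p = 0.0646 in limma). The chaperone Calr changed by -0.33 and -0.35, and Tapbpl, a peptide editor, by -0.38 and -0.39. Neither p53+/+ nor p53-/- had a call in this list here. Of all genes 13.2% rose and 10.3% fell in p53+/+, and 0.74% rose and 0.326% fell in p53-/-. In p53+/+ 3 of the list were higher with quantile normalization, 1 was higher in the authors' table and 3 were lower with median centring.

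Markers of other thymic cells were among the genes called at 4 h, when 35.8% of all genes rose in P72 and 28.8% in R72. In P72 8 of 12 macrophage, 7 of 10 dendritic cell, 11 of 11 neutrophil and 9 of 11 thymic epithelium markers rose, and in R72 4, 6, 2 and 4 of them rose, which for macrophage, neutrophil and epithelium markers was near or below the share of all genes. Of 8 B cell markers 2 rose and 1 fell in P72 and 2 rose and 2 fell in R72, and of 10 fibroblast and endothelium markers 3 rose and 1 fell in each. The summed linear level of the dendritic list went from 5.84-9.97 untreated to 19.3-20.8 at 4 h in P72, and from 8.30-10.9 to 14.0-18.3 in R72. The macrophage sum went from 29.7-56.6 to 80.1-106 in P72, and from 48.7-72.8 to 68.3-107 in R72. The neutrophil sum went from 35.3-62.8 to 71.3-147 in P72 and from 68.2-88.0 to 67.8-139 in R72, and the epithelium sum from 6.83-17 to 36.4-48.5 in P72 and from 19.2-24.5 to 35.1-58.0 in R72. The sum of the 12 thymocyte markers was 1182 to 1494 untreated and 1242 to 1351 at 4 h in P72, with 1 of them higher and 4 lower, and 1213 to 1389 and then 1334 to 1393 in R72, with 2 higher and 2 lower. The part of these cells in the changes of the proteasome and antigen processing genes was not tested.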

How the data were processed

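RNA of 32 thymocyte samples was measured on Agilent mouse whole-genome arrays in 1 colour. The deposited scanner files hold the processed intensity of each spot, background-corrected by Agilent Feature Extraction (9.5.3.1 per the file headers, 9.5.3 in the submitters' processing notes). The authors' deposited value table served as an alternative: its values are on a log2 scale, not centred (column medians 6.20 to 6.23), and correlate at 0.948 to 0.985 with log2 intensity of the same array, but the method is not given in the sources used here.

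Here log2 of each processed intensity minus the array's 75th percentile was taken, control spots and outlier flags were left out, and spots of a probe were averaged. Probes had to be well above background on 4 or more arrays, and a gene with several was read on its brightest probe. Groups were fitted with limma 3.58.1 in R 4.3.3 (lmFit and eBayes, two-sided, Benjamini-Hochberg over all genes tested, threshold 0.05), on the 24 P72 and R72 arrays or, for p53, on all 32, in 16 comparisons without covariates. For p53, a lone array at 2 h or 4 h was assumed to vary like the other groups. No array was dropped or imputed.

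The scripts were tested on simulated data. Named genes were all members of fixed roles and up to 4 genes per direction with the largest change among those past the threshold. The members and lists were chosen with earlier results of these data known. Psmg4, Ddi1, Paaf1, Nlrc5 and Ly6g, also listed, were not analysed here. The number of arrays limits the precision.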

Additional observations from a re-analysis of the deposited data

Results flagged for a closer look

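In 138 groups of 4 arrays examined for named members, 3 had an array far from the other 3, where chance gives about 1 in 20 groups. Psmd5 in R72 at 4 h was at 1.56 in replicate 2, and the others lay between 1.78 and 1.80. Psmb8 in P72 at 2 h was at 5.49 in replicate 2, and the others were at 5.43. Psmb6 in P72 at 4 h was at 4.99 in replicate 3, and the others lay between 4.80 and 4.81.

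The change after irradiation differed between p53+/+ and p53-/- by limma's test of the difference for Psmb7 (-0.54), Psmd7 (-0.53) and Psmb8 (-0.39), each lower in p53+/+. None of the 3 was called with slide as a fixed block, with normexp or quantile normalization, with no filter on dim probes, or without any 1 of 6 of the 8 arrays.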

How the results depend on the processing

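Counts are of the 42 genes called. P72 at 4 h (31) stayed within 1.5 times under every alternative run, 23 to 40 genes, and P72 against R72 and the response differences stayed at 0. With normexp the share of all genes called lower at 4 h also dropped, from 20.8% to 13.5% in P72 and from 16% to 3.73% in R72. Normexp background correction gave 0 for P72 and R72 at 2 h (6 and 9), 2 and 0 from 2 h to 4 h (22 and 9), 3 for R72 at 4 h (28), 2 for p53+/+ (16), 0 for the p53 difference (3) and 3 for irradiated p53+/+ against p53-/- (16). Quantile normalization gave 11 for P72 from 2 h to 4 h, 4 for R72 at 2 h, 5 for p53+/+ and 0 for the p53 difference. Median centring gave 11 and 15 at 2 h, 18 for R72 from 2 h to 4 h, 27 for p53+/+, 6 for the difference and 27 for the irradiated pair. The authors' table gave 3 and 4 at 2 h, 10 and 3 from 2 h to 4 h, 6 for p53+/+ and 6 for the difference. No filter on dim probes gave 5 for R72 from 2 h to 4 h and 0 for the difference, and a filter on all arrays gave 1 for p53-/- (0). The mean of a gene's probes gave 5 for R72 at 2 h and 1 for the difference. Slide as a block gave 17 for R72 from 2 h to 4 h, 0 for the difference and 7 for the irradiated pair, and as a random block 1 for p53-/-. The first and the later scan days alone, chosen after seeing the data, gave 0 and 0 for P72 at 2 h, 2 and 3 for P72 from 2 h to 4 h, 0 and 2 for R72 at 2 h, 16 and 18 for R72 at 4 h, and 0 and 0 for R72 from 2 h to 4 h, with fewer arrays. For the other settings the cause was not tested. Leaving out 1 array gave 4 to 7 and 6 to 12 at 2 h (P72 and R72), 27 to 33 and 24 to 29 at 4 h, 14 to 22 and 2 to 11 from 2 h to 4 h, 0 to 0 for P72 against R72, 2 to 20 for p53+/+, 0 to 0 for p53-/-, 0 to 7 for the difference and 2 to 23 for the irradiated pair. Of 56 called values of named genes, other settings kept 512 on their side and lost 141, and leave-one-out kept 313 and lost 75. Psmb8 in R72 at 2 h turned to 0.0093 with normexp, and Psme4 in P72 at 4 h to -0.21 with median centring. Replicate numbers were not taken to pair the arrays, since the correlation was over 0.1 in only 35 of 60 pairs, although 21 of 24 arrays matched their own number best, a hint of pairing from the data; with the replicate block the counts were 9, 32 and 23 in P72, 11, 30 and 10 in R72 (2 h, 4 h, 4 h against 2 h) and 0 between genotypes, none moved by over 1.5 times. Probe brightness limits Psma8, which was near background.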
